A study of Mus musculus with 9 samples.

Results

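Met and its neighbours Cav2, Cav1, Capza2 and Wnt2 lie in a stretch of mouse chromosome 6, chr6:15000000-24000000, parts of which were amplified in 2 of 9 mammary tumours. Not all of these genes were amplified in both tumours. The stretch was chosen by the log2 ratios of those tumours, and its members are the array probes whose deposited position falls inside it, 3171 of 963261 distinct probes. The 5 genes were placed by 4 intervals in mm9 positions. The intervals are 17.25 to 17.3 Mb for Cav2 and Cav1 together (28 probes), 17.41 to 17.53 Mb for Met (74 probes), 17.58 to 17.63 Mb for Capza2 (28 probes) and 17.93 to 17.99 Mb for Wnt2 (37 probes). The files name no build and pair no probe with a gene, so these assignments hold only as far as the file positions are mm9. The joint interval of Cav2 and Cav1 cannot hold both genes in full, since they span 60.1 kb from end to end in the RefSeq table of GRCm38.p6. How much of either gene it holds, or whether it holds any of Cav2, was not settled here.

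The study set out to find changes shared by mammary tumours of mice in which Rb and p53 had been removed by Cre recombinase. All tumours came from mice with floxed alleles of both genes (Rbf/f;p53f/f) on a mixed strain background, and the labels call them independent primary tumours. In 7 tumours the MMTV promoter, a mouse mammary tumour virus promoter used to reach mammary epithelium, drove Cre. Of these 1 grew in a nulliparous animal (the nulliparous tumour), 1 in a parous animal (the parous tumour), and 5 carry the label transplant. In 2 tumours, also labelled as transplants, Cre came from an adenovirus with the CMV promoter (Ad-CMVcre, here Ad-Cre). Tumour DNA in Cy5 shared 1 array per tumour with a Cy3-labelled pool of tail DNA from mice without tumours, so each value is a single measurement with no replicate of the same tumour. Ages, and the hosts of the transplants, were not given in the sources used here.

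Met is the receptor tyrosine kinase for hepatocyte growth factor and drives growth, movement and branching of epithelia, including mammary ducts. Caveolin 1 and caveolin 2, the products of Cav1 and Cav2, coat the membrane pits called caveolae. Capza2 encodes a subunit of the protein that caps the fast-growing end of actin filaments, and Wnt2 a secreted ligand of Frizzled receptors. In the order of the RefSeq table the neighbourhood reads Tes, Cav2, Cav1, Met, Capza2, St7, Wnt2, Asz1, Cftr.

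In Ad-Cre transplant 2 the edge of the amplified DNA fell between Cav1 and Met, so the 150 bases before the start of each of these genes are shown, as the gene starts on either side of that edge. They are RefSeq sequences of GRCm38.p6, both on the + strand, at chr6:17463807-17463956 for Met and chr6:17306185-17306334 for Cav1. The array positions are taken here as mm9, another build, so these positions are not set against them. Capitals mark GGGCGG or its reverse CCGCCC, the GC box, searched on both strands.
Met: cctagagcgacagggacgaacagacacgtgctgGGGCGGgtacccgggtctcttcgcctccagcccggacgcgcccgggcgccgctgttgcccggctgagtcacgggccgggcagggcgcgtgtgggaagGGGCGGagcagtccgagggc
Cav1: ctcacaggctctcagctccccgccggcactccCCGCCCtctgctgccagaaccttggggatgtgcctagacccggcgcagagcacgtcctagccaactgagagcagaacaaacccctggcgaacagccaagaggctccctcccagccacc
The Met stretch holds 19 CpG pairs and 74.7% G and C, and the Cav1 stretch 7 CpG pairs and 66.0%. The motif occurs 2 times before Met and 1 time in the Cav1 stretch shown. The table holds a second start of Cav1, whose stretch at chr6:17307490-17307639 has 0 occurrences, 10 CpG pairs and 69.3% G and C. In all, 28.6% of 32851 RefSeq stretches of the same length hold the motif. The arrays measured copy number, not the activity of these sequences.

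Each value below is a log2 ratio of tumour over pool, centred on the autosomal median of its array, where 0 means the typical autosomal ratio and 1 means double the signal ratio. Single probes varied by 0.159 to 0.183 (log2) between neighbours, and 3168 of the 3171 probes were usable in all 9 arrays. Probes of a gene share a tumour and are not replicates, so an SD over probes describes scatter along the gene. As a check of the labels, a run of 4 probes on chromosome 11, taken for the deleted stretch of Trp53 from its known position, kept 30.4% to 58.6% of the flanking signal in 8 tumours. The library labelled MMTV-Cre transplant 2 kept 96.7% and stands apart. It is not one of the amplified tumours. Of those the parous tumour kept 30.6% and Ad-Cre transplant 2 kept 58.6%, the highest of the 8.

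Met was present at more than 20 times the typical autosomal ratio in the parous tumour and in Ad-Cre transplant 2, and near 0 in the other 7 tumours. Its median over 74 probes was 4.46 ± 0.33 (SD over probes) in the parous tumour and 4.57 ± 0.28 in Ad-Cre transplant 2, or 22.0-fold and 23.8-fold. Single Met probes ran from 3.23 to 5.04 in the parous tumour and from 3.45 to 4.97 in Ad-Cre transplant 2. The lowest Met probe of either tumour therefore stood above every median of Met in the other tumours. Met had 0.01 in the nulliparous tumour and 0.13 in Ad-Cre transplant 1. In MMTV-Cre transplants 1, 2, 3, 4 and 5 it had 0.26, 0.00, 0.17, -0.02 and 0.20. Neighbours in this order of the lower levels differ by less than the SD over Met probes, which was 0.21 to 0.35 in these 7 tumours.

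Capza2, the actin-capping gene just beyond Met, went with Met in both amplified tumours. Its median was 4.48 ± 0.22 (SD over 28 probes) in the parous tumour and 4.60 ± 0.20 in Ad-Cre transplant 2, 22.3-fold and 24.3-fold. In the other 7 tumours Capza2 lay between -0.09 and 0.18. Met and Capza2 differed by -0.01 in the parous tumour and -0.03 in Ad-Cre transplant 2 (Met minus Capza2).

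The caveolin genes separated the amplified tumours. The joint interval of Cav2 and Cav1 had 4.45 ± 0.26 (SD over 28 probes), 21.8-fold, in the parous tumour, but -0.03 ± 0.32 in Ad-Cre transplant 2. The other 7 tumours had values between -0.07 and 0.19, so Ad-Cre transplant 2 lies within their range. Inside this tumour Met exceeded the caveolin interval by 4.60 (log2), 24.3-fold.

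Wnt2, the ligand gene at the far side of St7, was raised in both tumours to unequal levels. It had 4.43 ± 0.24 (SD over 37 probes) in the parous tumour, 21.6-fold, and 1.66 ± 0.23 in Ad-Cre transplant 2, 3.17-fold. The other 7 tumours had values between -0.19 and 0.17. In Ad-Cre transplant 2 Met exceeded Wnt2 by 2.91 (log2), 7.50-fold, while in the parous tumour the difference was 0.03. The 4 intervals were thus between 4.43 and 4.48 in the parous tumour, and at 3 separate levels in Ad-Cre transplant 2.

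**Figure D1:**
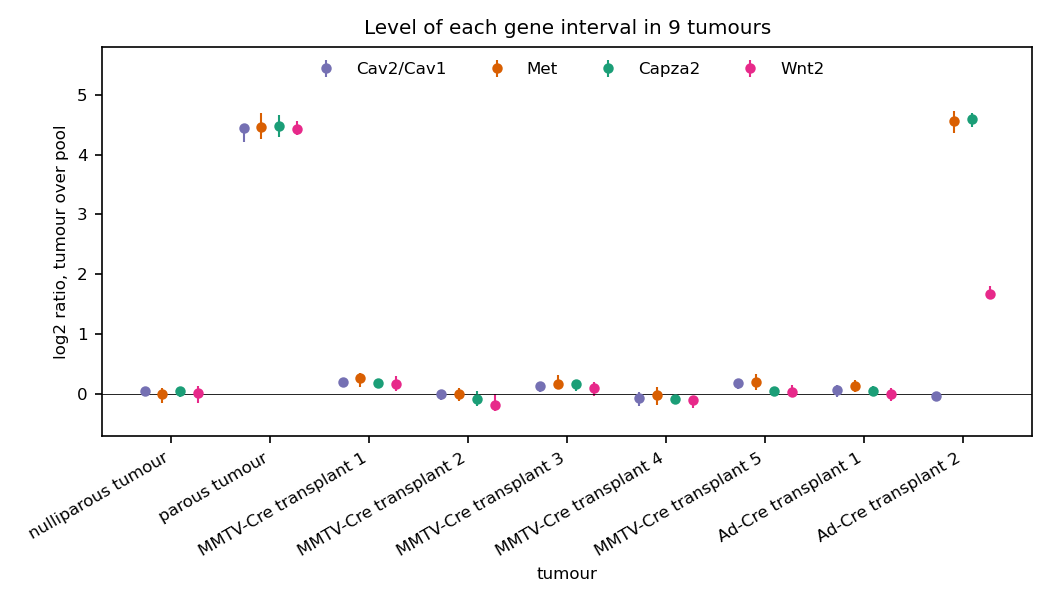
Median log2 ratio (y axis, tumour over pool) of each gene interval in each of the 9 tumours (x axis); bars run from the lower to the upper quartile of the probes. In the parous tumour all 4 intervals lie between 4.43 and 4.48, and in Ad-Cre transplant 2 Met and Capza2 are high, Wnt2 is at 1.66 and Cav2/Cav1 at -0.03.

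The chromosome around the region did not share these levels. The rest of chromosome 6 (54419 probes) had a median of -0.23 in the parous tumour and 0.04 in Ad-Cre transplant 2. Relative to it, Met stood 25.9-fold higher in the parous tumour and 23.2-fold higher in Ad-Cre transplant 2. In the other 7 tumours the rest of chromosome 6 lay between -0.08 and 0.08.

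**Figure D2:**
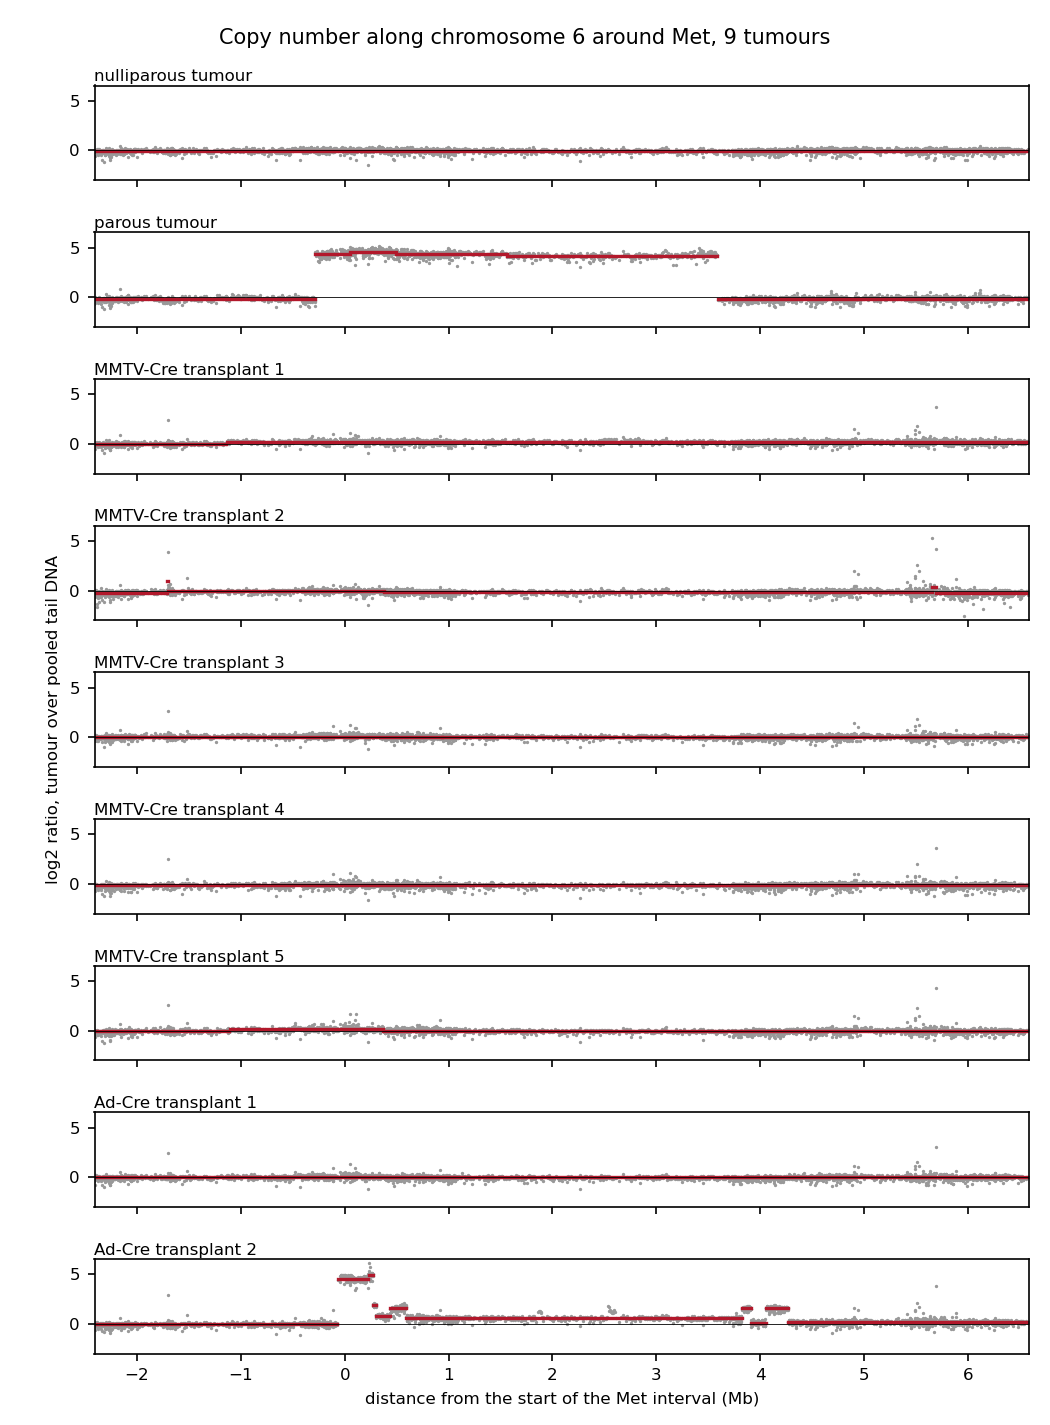
Log2 ratio of every probe of the region (grey, y axis) against distance from the start of the Met interval in Mb (x axis) in 9 tumours, with segment means in red. The parous tumour has 1 block of amplified probes and Ad-Cre transplant 2 a stepped profile, and the segments of the other 7 tumours that hold the gene intervals lie between -0.15 and 0.18; a few single probes of the transplants stand high outside the amplicon.

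Amplified segments were then delimited by segmenting the probes of chromosome 6, with a segment called high-level at a mean of 1 or more, gained at 0.25 or more and lost at -0.25 or less. In the parous tumour the high-level run began at 17127455 and ended at 20998299, over 3871 kb and 1112 probes, at a mean of 4.34. Both edges were sharp. On the left the last 3 probes outside had -0.35, -0.32 and -0.07 and the next 3 had 4.58, 4.16 and 4.28, with 1.65 kb between the probes on either side. On the right the last 3 inside had 4.35, 4.23 and 4.25 and the next 3 had -0.31, -0.15 and -0.32, 4.99 kb apart. All 4 gene intervals lay inside this run, the caveolin interval 123 kb from its left edge.

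Inside the parous run the level moved in small steps, whose number depends on the segmentation setting. The run was cut into 4 segments here, 2 with a penalty factor of 20, 3 in bins of 5 probes and 5 with factor 5. Segment means were 4.34 from 17127455 to 17460914, 4.58 to 17899515, 4.34 to 18973173 and 4.17 to 20998299. The step of 0.24 at 17460914 fell within the Met interval, between segments of 150 and 236 probes. The probe just before it was also low in the unamplified tumours (-0.81 to -0.22). The probes at 17463029 and 17464146, just after it, had -0.04 to 0.32 and 0.17 to 0.47 there. With the Met interval cut into 5 equal pieces, the parous medians were 4.32, 4.29, 4.65, 4.44 and 4.73. The same pieces in Ad-Cre transplant 2 had 4.65, 4.68, 4.72, 4.35 and 4.49. The last of the 5 pieces was thus the highest in the parous tumour, and the middle one in Ad-Cre transplant 2. The SD over probes of a piece was 0.22 to 0.39 in the former and 0.15 to 0.34 in the latter. The middle piece was also the highest in the nulliparous tumour (0.09) and in MMTV-Cre transplants 1 (0.32), 2 (0.08) and 5 (0.27). The highest was the 4th piece in MMTV-Cre transplants 3 (0.26) and 4 (0.02), and the 1st in Ad-Cre transplant 1 (0.15). Whether the order of pieces reflects copy number was not tested.

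In Ad-Cre transplant 2 the region was built of steps. The level rose from -0.04 to 4.56 between the probes at 17336643 and 17349430, a gap of 12.8 kb, where the last 3 probes outside had -0.07, -0.06 and 0.07 and the next 3 had 4.47, 4.44 and 4.26. This edge lay 49.4 kb after the end of the caveolin interval and 60.6 kb before the start of the Met interval. The level of 4.56 (23.6-fold) held to 17636964 over 142 probes and so took in the whole Met and Capza2 intervals. The next 43.0 kb, to 17682146, were higher still at 4.99 (31.9-fold, 21 probes), the highest segment of the region in either tumour.

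The fall on the far side of Capza2 went through several levels. Within 1.51 kb the probes dropped from 4.84, 4.89 and 5.07 to 1.86, 1.95 and 2.06. A short segment from 17683662 to 17711336 had a mean of 1.91 (3.77-fold, 18 probes), and the next, to 17848492, had 0.79 (1.73-fold). These steps fell between Capza2 and Wnt2, where the RefSeq order has St7. From 17850069 to 18002244 the level rose again to 1.58 (2.98-fold, 88 probes), and this segment held the Wnt2 interval.

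**Figure D3:**
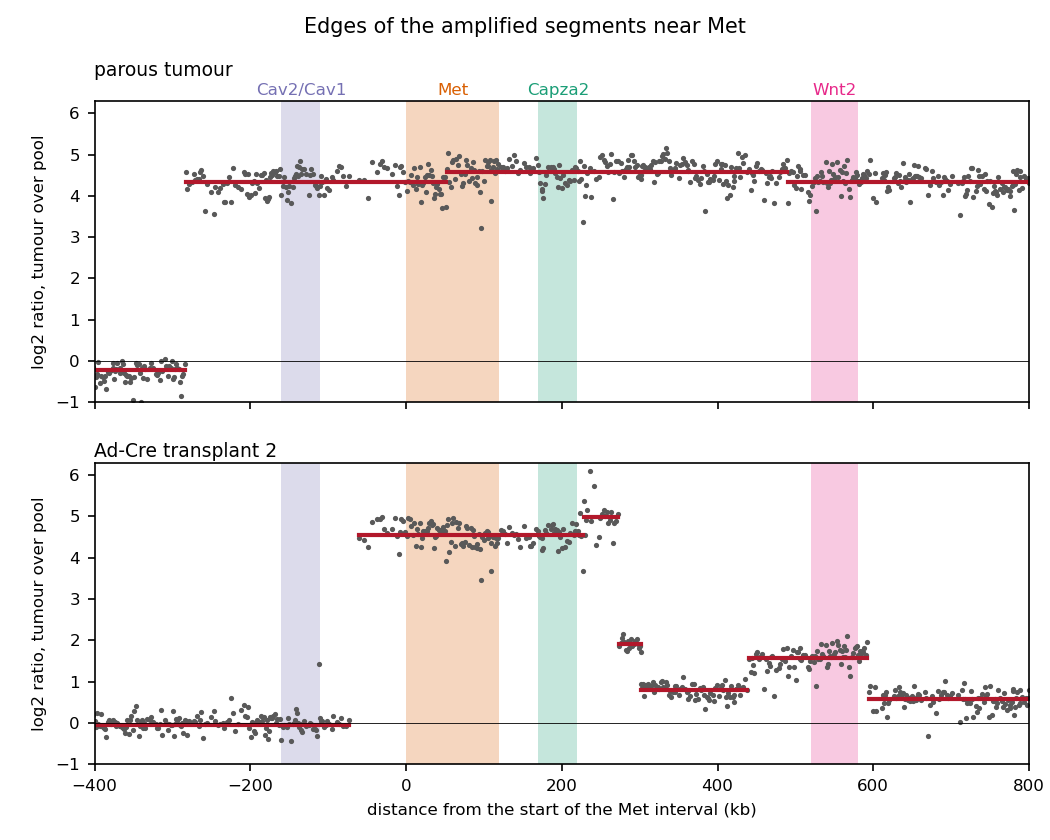
Log2 ratio of single probes (points, y axis) against distance from the start of the Met interval in kb (x axis) in the parous tumour (top) and Ad-Cre transplant 2 (bottom); red lines are segment means and shaded bands the gene intervals. The left edge of Ad-Cre transplant 2 lies between the bands of Cav2/Cav1 and Met, and the sharp drop after Capza2 is absent from the parous tumour.

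Beyond Wnt2, Ad-Cre transplant 2 carried a long low step and 2 further peaks. From 18003913 to 21230901, over 3227 kb, the mean was 0.58 (1.49-fold). From 21233642 to 21318697 it was 1.57 (51 probes), from 21319850 to 21461164 it was 0.13 (79 probes), and from 21464367 to 21676864 it was 1.57 again (134 probes). The segment with Wnt2 and these 2 peaks, 3.23 Mb further along, thus had means of 1.58, 1.57 and 1.57, with an SD over probes of 0.25, 0.15 and 0.18. After 21677820 the level was 0.20 up to 41016931, above the -0.04 on the other side of Met. With a lower segmentation penalty (factor 5 in place of 10) 10 probes from 19941993 to 20010852 formed a further segment at 1.37. MMTV-Cre transplant 1 also had its highest 100 kb window of the region there, 0.42 at 20000001. The lower penalty also gave segments of 5 probes from 15704796 to 15713482 at 0.74 and from 23091075 to 23098634 at 1.02. Each holds a single probe that followed the transplant label, as described below.

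**Figure D4:**
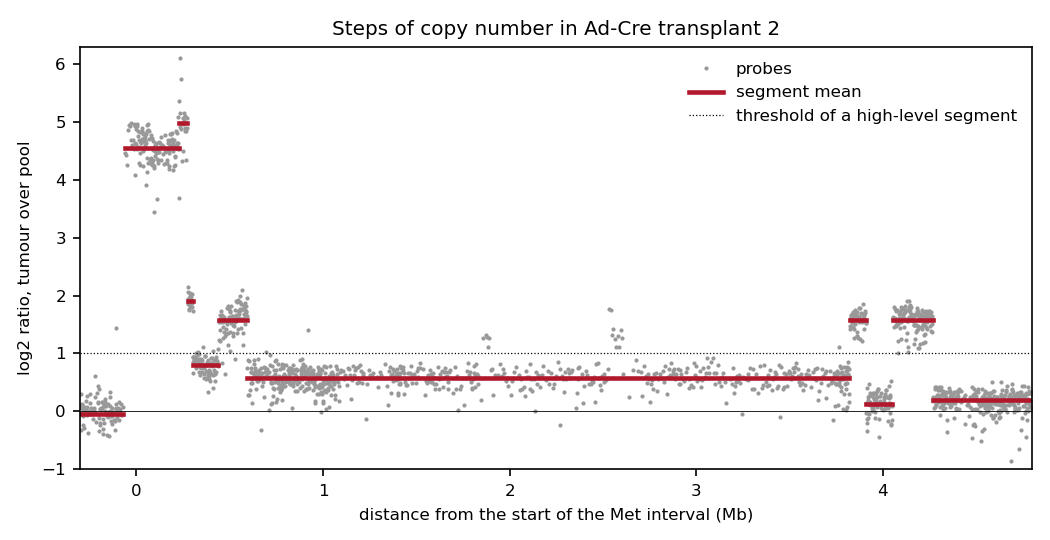
Log2 ratio of single probes (grey, y axis) against distance from the start of the Met interval in Mb (x axis) in Ad-Cre transplant 2, with segment means in red and the threshold of 1 dotted. Segments at 1.58, 1.57 and 1.57 lie apart from each other, and the segment between the last pair of them lies at 0.13.

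The part amplified at high level in both tumours had 2 pieces. The first ran from 17349430 to 17711336 (362 kb, 181 probes) with means of 4.52 in the parous tumour and 4.35 in Ad-Cre transplant 2, and it held Met and Capza2 in full. The second ran from 17850069 to 18002244 (152 kb, 88 probes), with means of 4.44 and 1.58, and held Wnt2. Together they made up 514 kb, which is 13.3% of the high-level length of the parous tumour in the region and 63.3% of that of Ad-Cre transplant 2. The left end of the common part was set by Ad-Cre transplant 2 in every setting. Its right end depends on the threshold for a high level, and with a threshold of 2 the common part was 333 kb, still with Met and Capza2 and without Wnt2.

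The 2 channels did not contribute to the ratio alike. At Met the tumour channel had a median processed intensity of 18616 in the parous tumour and 17596 in Ad-Cre transplant 2, 16.6 and 16.4 times the autosomal median of that channel. The pool channel, which holds the same reference DNA on all arrays, had 845 and 712, or 0.745 and 0.664 times its autosomal median. In the other 7 tumours the pool channel at Met stood at 0.90 to 0.95 times. Set against the same probes in the other tumours, the pool signal at Met was 81.3% in the parous tumour and 75.2% in Ad-Cre transplant 2, while single unamplified tumours ranged from 99.4% to 101%.

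The lower pool signal followed the high-level segments. In Ad-Cre transplant 2 it was 100% before the left edge, 74.3% in the segment with Met, 73.5% in the peak of 4.99, 93.6% in the segment at 1.91, and 96.1%, 96.4% and 95.7% in the 3 segments near 1.57. In the gained segments of this tumour at 0.79 and 0.58 it was 100% and 98.7%. In the caveolin interval the pool signal was 98.7% in Ad-Cre transplant 2 and 82.7% in the parous tumour. By the tumour channel alone, Met stood 16.9-fold above the other tumours in the parous tumour and 16.0-fold in Ad-Cre transplant 2, less than the 22.0-fold and 23.8-fold of the ratio. The cause of the lower pool signal was not tested, and no probe of the region was saturated in any array (0 of 3171).

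**Figure D5:**
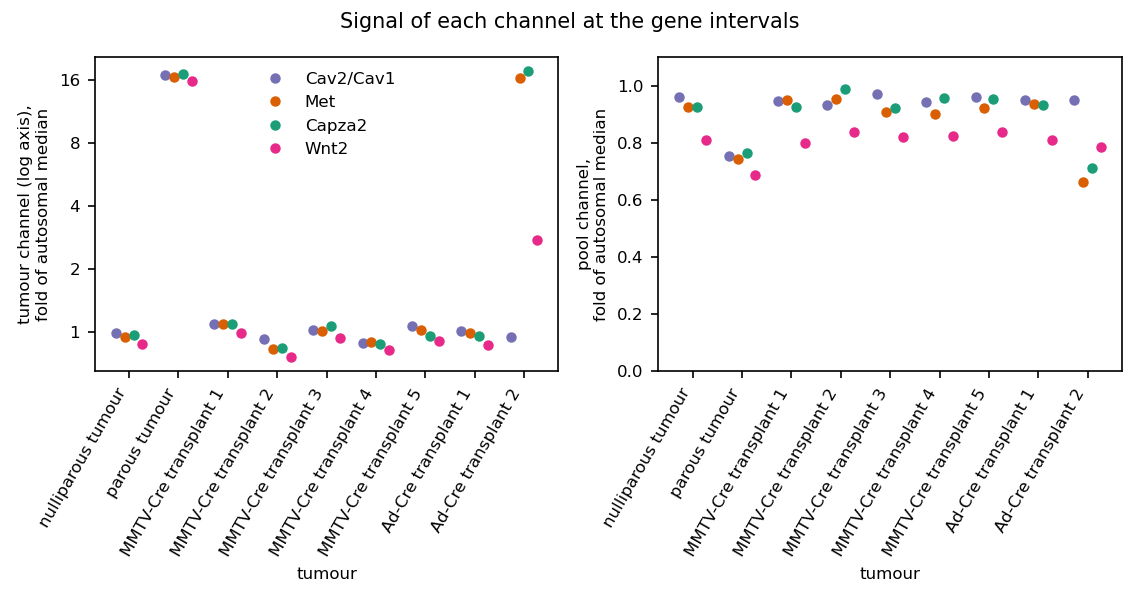
Median processed signal at each gene interval (points) in 9 tumours (x axis), as a fold of the array's autosomal median, for the tumour channel (left, log axis) and the pool channel (right, linear axis from 0). Where the tumour channel is about 16 times the median, the pool channel drops to between 0.66 and 0.76 times.

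The other 7 tumours carried no high-level segment over Met. MMTV-Cre transplant 1 had the highest Met level among them, in a segment from 16275502 to 25645219 with a mean of 0.18 against 0.02 before it, below the threshold of 0.25. In MMTV-Cre transplant 5 a segment from 16304627 to 17779582 had 0.14 between flanks of -0.05 and -0.05, and it held the caveolins, Met and Capza2. When the probe pattern shared by the 7 unamplified tumours was subtracted, the step in MMTV-Cre transplant 5 was 0.07 against -0.01 and -0.02, from 16491973 to 18476415. MMTV-Cre transplant 2 was the only unamplified tumour with segments called gained in the region, 5 probes from 15700792 to 15709045 at 0.98 ± 1.64 (SD over probes) and 24 probes from 23065158 to 23098634 at 0.33 ± 1.39. Neither held one of the gene intervals. They hold the single probes at 15704796 and 23098575, which stood high in every transplant with a usable spot, as described below. In MMTV-Cre transplant 2 the segment with the caveolins, Met and Capza2, to 17791593, had -0.06, and the next, with Wnt2, -0.15. MMTV-Cre transplant 3 had 0.07 over the genes, to 18344345, and 0.02 after it. Without the subtraction, the nulliparous tumour, MMTV-Cre transplant 4 and Ad-Cre transplant 1 each had a single segment over the whole region. The means were -0.04, -0.15 and -0.01. With the subtraction, the nulliparous tumour had a step within the Met interval, -0.21 from 17450130 to 17527519 (49 probes), between -0.06 and -0.01.

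Against the whole genome, the amplified windows were among the highest of their tumours. In 23354 autosomal windows of 100 kb, the window with most of Met ranked 1st in Ad-Cre transplant 2 (4.61) and 8th in the parous tumour (4.42), whose highest window, at 17700001, also lay in this run (4.64). Of the 90 windows of the region 39 reached 1 in the parous tumour, where 0.355% of all windows did, and 10 in Ad-Cre transplant 2, where 0.176% did. A further count at 0.25 gave 50 of 90 windows in Ad-Cre transplant 2 (1.89% of all windows) and 12 of 90 in MMTV-Cre transplant 1 (4.75%). The region was chosen for these levels, so the counts only describe its extent.

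The design implies comparisons of all tumours with the pool, of Ad-Cre with MMTV-Cre tumours, and of MMTV-Cre transplants with the other MMTV-Cre tumours. They were fitted with limma on all 23354 windows, and p-values were adjusted by Benjamini-Hochberg, with calls at 0.05. Against the pool 36.9% of all windows were called, and 4 of 90 in the region. Those starting at 15000001, 15100001 and 16100001 were lower than the pool and that at 22400001 higher, all outside the amplified segments. Without the parous tumour and Ad-Cre transplant 2 the shares were 37.4% and again 4 of 90, and the mean of the Met window over 7 tumours was 0.10 (SE 0.05). With scan day as a random block, whose fitted correlation was -0.18, 54.5% were called, and 36 of 90 in the region, where the fitted mean of the Met window was 1.31 against 1.08 without the block. The rule chose the region on these ratios, and nothing is read from its counts.

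Between the Cre models, the amplicon was carried by 1 of 2 Ad-Cre and 1 of 7 MMTV-Cre tumours. The mean Met level was 2.35 ± 3.14 (SD, n = 2) in Ad-Cre and 0.73 ± 1.65 (SD, n = 7) in MMTV-Cre tumours, and the ranges overlapped. limma called 0 of 23354 windows (0.0%), with 555 at an unadjusted p under 0.05. The difference of the Met window was 1.65 (SE 1.09, Ad-Cre minus MMTV-Cre). It was -0.59 without Ad-Cre transplant 2, 3.90 without Ad-Cre transplant 1 and 0.16 within the scan day that holds both models, so it rests on which tumours are included. Within that day (2 Ad-Cre arrays and the nulliparous and parous arrays) 0.689% of windows were called, and 38 of 90 in the region. Of these 36 were lower in Ad-Cre, as were 0.531% of all windows. In this fit the SE of the Met window was 0.21. Its values were 0.12 and 4.61 in Ad-Cre and -0.01 and 4.42 in the other tumours. The SE thus reflects a spread shared across windows and not that of these values. The region was chosen for the levels of the parous tumour and Ad-Cre transplant 2, so nothing is read from these counts.

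Among MMTV-Cre tumours the comparison of transplants with the rest turned on the parous tumour. The 5 transplants had a mean Met level of 0.12 ± 0.12 (SD, n = 5), and the nulliparous and parous tumours had 0.01 and 4.46. limma called 1 window (0.00428%) and 0 of the 90 of the region. An unadjusted p under 0.05 was reached by 40 of these 90 and by 1203 of all 23354. The region was chosen for levels that include the parous tumour's, so nothing is read from the 40. Without the nulliparous tumour 84 windows (0.36%) were called, 39 of them in the region and all 39 lower in transplants (0.355% of all windows were lower), which sets the 5 transplants against the parous tumour alone, a lone array assumed to vary like the others. The Met window differed by -2.09 (transplants minus others) with both, by -4.31 without the nulliparous tumour and by 0.12 without the parous tumour. The transplants were scanned on other days than the nulliparous and parous tumours, so scan day and group cannot be told apart here.

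A few single probes of the region followed the transplant label and not the amplicon, a pattern noticed in the data and given without a test. At 15704796 the 7 tumours labelled as transplants, Ad-Cre included, had 2.43 to 3.89, and the nulliparous and parous tumours -0.38 and -0.41. At 23098575 the 6 transplants with a usable spot had 3.03 to 4.30, against 0.20 and 0.17. Probes at 22314307 and 22914909 showed the same order with smaller gaps of 1.22 and 1.56. In all, 4 of 3169 probes of the region had every transplant at least 1 above both other tumours, and 0 at least 1 below. Over the autosomes 721 of 912537 probes (0.079%) were higher in this way and 0 (0%) lower, so the share in the region is near that of the genome. The pool signal of these 4 probes was low, 0.025 to 0.31 times the autosomal median, and over the 721 probes its median was 0.128 times. The 7 transplants were scanned on 3 days, and the Ad-Cre pair on the day of the nulliparous and parous tumours.

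The partners of Met in signalling could be placed only by chromosome, since no probe is paired with a gene. Hgf, which encodes the ligand of Met, is on chromosome 5, whose median was 0.06 in the parous tumour and 0.01 in Ad-Cre transplant 2. Of 22 listed genes of Met signalling, 3 lay on a chromosome at 0.25 or above in the parous tumour, where chromosomes 3 and 8 were gained and carry 9.8% of 20665 coding genes of the RefSeq table. These were Gab1, a docking protein of the receptor, on chromosome 8 (0.28), and Shc1, an adaptor, and Pik3ca, a lipid kinase, on chromosome 3 (0.26). Spint2, an inhibitor of the proteases that activate the ligand, lay on chromosome 7 (-0.28), the only one of the 22 on a lost chromosome in that tumour, where chromosomes 1 and 7 were lost and carry 15.6% of these genes. These counts rest on 2 chromosomes in each direction and show nothing particular to the list. In Ad-Cre transplant 2 no chromosome median reached either threshold (0% of genes gained and 0% lost), so no listed gene could be counted, and the medians for the 22 were between -0.05 and 0.02. Of 7 caveola partners of the caveolins, 3 lay on lost chromosomes in the parous tumour, Cavin2 on chromosome 1 and Cavin3 and Ehd2 on chromosome 7, where 15.6% of all genes did. A chromosome's median says nothing on focal changes at these genes.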

How the data were processed

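Genomic DNA of 9 tumours and a tail pool was measured on Agilent 2-colour tiling arrays (design 027414). Per the file headers, the authors extracted spots with Feature Extraction 10.5.1.1. The processed signals they deposited are intensity values of each spot with background subtracted and dyes normalised, and the authors' ratios and the deposited series table are log10 of red (tumour) over green (pool), whose table was used as an alternative. The genome build is not given in the sources used here.

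From these values log2(red/green) was taken per probe. Left out were 1597 to 2115 spots per array, either flagged as outliers or with a pool signal not well above background. The autosomal median of an array was set to 0. Median intensity was 21.8 to 32.4 times the local background for the pool and 14.9 to 17.9 times for tumour DNA. The number of arrays limits the precision.

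Gene levels are medians over probes. Segments came from PELT on single probes (penalty factor 10, at least 5 probes). Windows of 100 kb with at least 3 probes went into limma (version 3.58.1, with R 4.3.3). Scripts were tested on simulated data. Python 3.11.15, numpy 2.4.6, pandas 2.3.3, numba 0.67.0 and matplotlib 3.10.9 were used. The region, its members and the gene lists were chosen with earlier results of these data known. Named were the 5 genes, their neighbours from Tes to Cftr, the partner lists, and the 3 windows outside the region most correlated with the Met window. Alternatives were other background corrections (normexp with an offset of 50, and raw median minus local background, added after seeing the data), loess, centring, filters, interval widths, segmentation settings, scan day and each tumour left out. Subtraction of the unamplified tumours' probe pattern, the penalty of 5 as a list of segments and the single probes that follow the transplant label were also chosen after seeing the data.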

Additional observations from a re-analysis of the deposited data

Results flagged for a closer look

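The parous tumour stood far above the other MMTV-Cre tumours at each gene interval, as the highest of 7 values with a gap to the next that takes up nearly the whole range. Its log2 ratios were 4.45 at Cav2/Cav1, 4.46 at Met, 4.48 at Capza2 and 4.43 at Wnt2, and the next highest MMTV-Cre values were 0.19, 0.26, 0.18 and 0.17. The intervals lie in 1 amplified run, so these are 4 readings of 1 event and not 4 events. The values were marked by Dixon's ratio, that gap over the range, by which chance alone marks about 1 in 20 groups not chosen by their values. The region was chosen for this tumour's level, so that rate does not hold here and nothing is read from the mark.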

How the results depend on the processing

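In the parous tumour and Ad-Cre transplant 2 the raised levels kept their direction in all 9 alternatives, and Cav2/Cav1 in Ad-Cre transplant 2 lay between -0.07 and 0.01 (above 0 only with the mean over probes). A normexp correction raised them to 5.35 (Cav2/Cav1), 5.38 (Met), 5.41 (Capza2) and 5.36 (Wnt2) in the parous tumour, and to 5.66 (Met), 5.70 (Capza2) and 2.39 (Wnt2) in Ad-Cre transplant 2. Raw medians minus local background, added after seeing this, moved none of them by more than 1 SD over probes. Centred on the rest of chromosome 6, Capza2 had 4.71 in the parous tumour. The parous edges stayed within 10 kb in every setting. In Ad-Cre transplant 2 the run with Met began at 17332.4 kb in bins of 5 probes, and it ended at 21318.7 kb with a high-level threshold of 0.5, 17682.1 kb with 2 and 18002.2 kb with normexp. The common part was 583 kb with penalty factor 5, 536 kb in bins of 5 probes, 617 kb with the other tumours subtracted, 3649 kb at a threshold of 0.5, 333 kb at 2 and 653 kb with normexp.

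For Ad-Cre against MMTV-Cre limma called 0 windows, 161 within the scan day of both models, 4 with scan day as a fixed block, and 0 to 3 with 1 tumour left out (3 when Ad-Cre transplant 1 was the one, 1 for MMTV-Cre transplant 5). For MMTV-Cre transplants against the rest it called 1 window, 0 with normexp, 26 with no filter on dim spots, and 0 to 84 with 1 tumour left out. The difference of the Met window ranged from -0.59 (Ad-Cre transplant 2 left out) to 3.90 (Ad-Cre transplant 1 left out) in the former, and from -4.31 (nulliparous left out) to 0.12 (parous left out) in the latter. The cause of these changes was not tested, and the 161 windows within the scan day were called with a spread shared across windows. No paired analysis was possible because replicate numbers are only names given by order of accession.

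Edges are known only to the spacing of probes (median 1823 bp, up to 33.3 kb). Without other arrays of the same tumours, a level has no error from repeated measurement.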

Other observations

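Outside the region, 3 windows of 100 kb had values over the 9 tumours most like those of the Met window, by Pearson's r over 9 tumours as a description with no test. They were chr12:12100001-12200000 (r = 0.89), chr12:36000001-36100000 (r = 0.85) and chr2:64400001-64500000 (r = 0.77), with 12, 14 and 11 probes. In the first the parous tumour and Ad-Cre transplant 2 had 0.41 and 0.31 and the other 7 tumours -0.18 to 0.12. In the second they had 0.23 and 0.17 against -0.07 to 0.10, and in the third 0.18 and 0.09 against -0.38 to -0.06. Each r rests on the 2 tumours with the Met amplicon.

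Further along chromosome 6, Ad-Cre transplant 2 alternated between a pair of levels. From 42889809 to 47240380 its segments of 100 or more probes had means of 0.54, -0.36, -0.34, 0.53, -0.31, 0.51 and 0.48, and the next, to 47600425, had -0.33. From 47728793 the level was 0.00. The parous tumour had -0.33 and -0.27 over this stretch.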
